A study of Mus musculus with 3 samples.

Results

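The 8 genes described here are Cr2, C3, C4b, C1s1, C1ra, Serping1, Cd55 and Cd59a, which encode the complement receptors, components and regulators chosen by name among the 51912 genes of the count tables. They were measured in 3 single-cell RNA libraries of mouse lymph node (LN) stromal cells. The cells came from C57BL/6 mice carrying the CXCL13-TdTomato transgene, in which Cre made under control of Cxcl13 marks follicular stroma with TdTomato, and live PDPN+ CD31- CD45- TdTomato+ cells were sorted. By the library titles, the mice of 2 libraries (2-IC) had received 2 antigen-immune complexes (ICs), 7 days and 24 h before analysis. Those of 1 library (1-IC) had received 1 IC, 24 h before. Mice of both groups were immunised, LNs of several mice were pooled, and no library of unimmunised mice was analysed here. Stromal types were set from 5 genes by their UMIs, the molecular tags that each stand for 1 captured mRNA. A barcode with Cr2 was called a follicular dendritic cell (FDC). Among barcodes without Cr2, Madcam1 marked marginal reticular cells (MRC), Tnfsf11 interfollicular reticular cells (IFRC), Fmod T-B border reticular cells (TBRC) and Inmt medullary reticular cells (MedRC).

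Complement is a cascade of plasma proteins in which recognition of an antigen-bound antibody by C1q activates the proteases C1r and C1s, which cleave C4 and C2 and so lead to the cleavage of C3. C3 fragments bound to an antigen are the ligands of the receptors CR1 and CR2, both made from Cr2 in the mouse, through which FDCs capture and hold ICs. Serping1 (C1 inhibitor) blocks C1r and C1s, Cd55 dissociates the C3 convertases at cell surfaces, and Cd59a hinders assembly of the membrane attack complex.

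On GRCm38, Cr2 lies on chromosome 1 from 195136811 to 195176716 (minus strand, 26 separate exon blocks) and Cd55 on the same chromosome from 130439027 to 130462744 (minus strand, 10 blocks). C3 spans 57203970 to 57228136 (42 blocks) and C4b 34728380 to 34743882 (40 blocks), both on the minus strand of chromosome 17. C1s1, from 124530345 to 124542359 on the minus strand, and C1ra, from 124512405 to 124523443 on the plus strand, are neighbours on chromosome 6. Serping1, from 84765387 to 84775444 on the minus strand, and Cd59a, from 104095801 to 104115354 on the plus strand, are on chromosome 2. Stretches of 50 bases found in another annotated gene made up 50.8% of C1ra transcripts (shared with C1rb and Gm18840), 34.6% of C4b (C4a), 21.8% of C1s1 (C1s2), 8.0% of Cd55 (Cd55b) and 3.87% of Cd59a (Cd59b). The libraries were made with a 3′ kit, which reads transcript ends. In roughly the last 500 bases the shares were 27% (C1ra), 22.6% (C4b), 26.0% (C1s1), 10.25% (Cd55) and 0.80% (Cd59a). Reads lying wholly within such stretches could match more than 1 gene. Values of C1ra, C4b and C1s1 are therefore uncertain, to an extent that was not measured, as read lengths and mapping were not examined. No such stretch was found for Cr2, C3 or Serping1.

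The 150 bases before the annotated start of 4 members are shown, the receptor Cr2, the components C3 and C1s1 whose levels moved together, and the regulator Cd55 whose level moved the other way. They are from RefSeq on GRCm38.p6, minus strand, 5′ to 3′, from chr1:195176720-195176869 (Cr2), chr17:57228137-57228286 (C3), chr6:124542360-124542509 (C1s1, the more upstream of 2 starts) and chr1:130462745-130462894 (Cd55). Capitals mark matches on either strand to 1 of 6 motifs.
Cr2: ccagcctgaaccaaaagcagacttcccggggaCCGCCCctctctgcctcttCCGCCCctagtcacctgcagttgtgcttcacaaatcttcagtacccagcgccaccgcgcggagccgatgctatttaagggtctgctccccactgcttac
C3: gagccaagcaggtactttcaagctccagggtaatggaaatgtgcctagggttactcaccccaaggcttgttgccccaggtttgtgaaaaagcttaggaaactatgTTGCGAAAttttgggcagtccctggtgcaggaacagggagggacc
C1s1: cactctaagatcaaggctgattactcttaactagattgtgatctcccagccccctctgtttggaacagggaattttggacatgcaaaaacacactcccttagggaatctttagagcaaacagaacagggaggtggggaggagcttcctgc
Cd55: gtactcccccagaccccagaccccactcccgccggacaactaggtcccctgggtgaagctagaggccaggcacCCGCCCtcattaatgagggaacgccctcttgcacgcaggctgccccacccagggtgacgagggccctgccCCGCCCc

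The C3 stretch held a C/EBP-like motif (TTGCNNAA) at -45 to -38 from the start, a motif in 5.46% of the 32851 RefSeq promoter stretches of this length. The Cr2 and Cd55 stretches each held 2 GC boxes (GGGCGG), which 28.6% of stretches held. The CCAAT box (CCAAT), the TATA box (TATAAA), the GAS motif (TTCNNNGAA) and the interferon-response core (TTTCNNTTT), in 24.5%, 7.57%, 4.09% and 5.17% of stretches, had no match in these 4 windows, and the C1s1 window held none of the 6.

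The libraries held 5486 barcodes, of which 2243 passed the filters (1526 and 391 in 2-IC replicates 1 and 2, and 326 in 1-IC) and 1193 fell in a gate. Kept barcodes had a median of 4700.5, 14732 and 5979 UMIs in that order, so that 2-IC replicate 2 was the deepest per barcode and 1-IC had the fewest barcodes. The 2-IC libraries shared 76 barcode sequences (2.01% and 7.39% of their barcodes), of which 15 were kept in both, 2-IC replicate 1 and 1-IC shared 2, and 2-IC replicate 2 and 1-IC shared 0. Cxcl13 and Pdpn were detected in every gate of every library, while Cd79a and Cd79b were at 0 in kept barcodes by the filter. Ms4a1, a B cell marker that the filter did not use, was at most at 4.80 CPM (UMIs of the gene per 1000000 UMIs) in any gate of a library, against 716 to 1001 CPM in B cell barcodes.

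The FDC gate held 230 barcodes, 145, 35 and 50 per library, and part of it carried markers of another gate. Of the 230 barcodes, 81 had a single Cr2 UMI and 60 had 10 or more. Inmt, the MedRC marker, was found in 29 of 62 barcodes with a single Cr2 UMI in 2-IC replicate 1, in 3 of 8 in 2-IC replicate 2 and in 1 of 11 in 1-IC. The FDC marker Fcer2a, an Fc receptor, was found in 7, 0 and 1 of these, against 16 of 31, 10 of 16 and 9 of 13 barcodes with 10 or more Cr2 UMIs. Fcgr2b was found in 9, 0 and 2 of the barcodes with a single Cr2 UMI, and Madcam1 in 6, 1 and 6. Clu, another FDC marker, was found in all of them, at 8011, 7503 and 22443 CPM. It was at 22253, 10816 and 26309 CPM with 10 or more Cr2 UMIs. The paper found Fcer2a in only a fraction of the cells of an FDC cluster, so its absence does not by itself mark another cell type. Thus barcodes with a single Cr2 UMI often held the MedRC marker and seldom Fcer2a in 2-IC replicate 1. No doublet caller was run, and the FDC gate kept barcodes that also held the marker of another gate. Each called difference is also given for gates of at least 2 UMIs where that changed it by more than 1.5 times or changed the call, and there MRC of 2-IC replicate 2 had fewer than 5 barcodes and was left out of the fit. The other gates held 68 (MRC), 162 (IFRC), 100 (TBRC) and 633 (MedRC) barcodes.

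Cr2 mRNA defined the FDC gate, so its levels are a description. FDC barcodes held 1075 CPM of Cr2 in 2-IC replicate 1, 1374 in 2-IC replicate 2 and 1127 in 1-IC, a mean of 1192 ± 159.8 (SD, n = 3 libraries). The 1-IC value lay between the values of the 2-IC libraries. The median FDC barcode had 2, 6 and 5 Cr2 UMIs in these libraries and the highest had 93. B cell barcodes, which express Cr2 too, held 98.4, 249.8 and 136 CPM, below the FDC gate in every library. Among kept barcodes with Madcam1 and without Fmod and Inmt, 55.9%, 57.7% and 66.7% had Cr2, against 3.76%, 1.09% and 1.22% of those with Inmt and without Madcam1, Tnfsf11 and Fmod.

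The secreted members C3, C4b, C1s1, C1ra and Serping1 were lowest or among the lowest in FDC barcodes and highest in TBRC or MedRC by the mean over libraries, whereas the mean of Cd55 was highest in FDC among the gates. Of the 6 members that passed the filter on low counts and were not used by a gate, none was called between FDC and MRC by edgeR's quasi-likelihood test on summed counts (adjusted p under 0.05), where 3.66% of 6756 genes tested were called. DESeq2 called none of the 6 there either, and 3 of them had an unadjusted p under 0.05 with edgeR. MRC held 41, 11 and 16 barcodes, and some other settings did call a member there. With barcodes thinned to 2000 UMIs C1s1 was called, among 91 of 1604 genes. Without 2-IC replicate 1 Cd55 was called, among 116 of 6033. Settings that called C3 there are given below. Between FDC and IFRC 5 of 6 were called, C3, C1s1, C1ra and Serping1 lower and Cd55 higher in FDC, against 11.3% of genes tested. Between FDC and TBRC 5 were called, all lower in FDC (14.7% of genes tested), and between FDC and MedRC all 6 were called, 5 lower and Cd55 higher (23.8%). Their median log2 fold change was -0.35, -0.86, -1.28 and -1.32 in these comparisons, beside 0.04, -0.02, 0.02 and 0.00 over all genes tested. Among the 4 gates without Cr2, 5 members differed (all but Cd55), against 12.4% of genes tested. Cd59a was below the filter in all of these comparisons. The fit used 15 sums with the library as a block, because all gates of 1 library were sorted and prepared together. The p-values therefore measure only how far the differences between gates varied over these libraries. Without the block, 12 of the 23 calls of members (Malat1 split below included) were lost, among them all 5 against IFRC, and no direction changed.

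C3, the central component of the cascade, stood at 4106, 4309.95 and 1432 CPM in FDC (2-IC replicate 1, 2-IC replicate 2 and 1-IC, the order kept from here on). It reached 6298, 4857 and 3843 CPM in MRC and 7328, 5537 and 6804 in IFRC. In TBRC it was at 10410.5, 8991 and 8449 CPM and in MedRC at 10476, 10046 and 7978. FDC lay below every other gate within each library, and the FDC range overlapped that of MRC but not that of IFRC, TBRC or MedRC. TBRC and MedRC overlapped each other. The log2 fold change of FDC was -1.53 ± 0.22 (SE) against TBRC (adjusted p = 1.7e-05) and -1.64 ± 0.22 against MedRC (2.75e-06). It was -1.03 ± 0.22 against IFRC (adjusted p = 0.00179) and -0.56 ± 0.21 against MRC (0.195). With gates of at least 2 UMIs the difference from MRC was -1.14 and was called (adjusted p = 0.0248), and that from IFRC was -1.62 (7.18e-05). With FDC chosen by Fcer2a or Fcgr2b in place of Cr2, the difference from IFRC was -0.91 and was not called (adjusted p = 0.135). B cell barcodes held 244, 181 and 36.3 CPM of C3, below FDC in every library.

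C4b, the mouse C4 gene cleaved by C1s, followed another order. In FDC it was at 693, 530.05 and 383 CPM, in MRC at 539.9, 401 and 421, and in IFRC at 609, 589.8 and 685. These 3 gates overlapped. TBRC, with 1506, 1101 and 1292 CPM, and MedRC, with 1315, 1147 and 907, lay above all 3. FDC was lower than TBRC by a log2 fold change of -1.24 ± 0.17 (edgeR adjusted p = 1.26e-05) and lower than MedRC by -1.11 ± 0.17 (1.62e-05). Its differences from MRC (0.33 ± 0.19, adjusted p = 0.450) and from IFRC (-0.18 ± 0.17, 0.611) were not called.

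C1s1 and C1ra encode the proteases of the C1 complex. C1s1 was at 955, 827 and 445 CPM in FDC, 1198, 1124 and 729 in MRC, and 1468, 1166 and 1207 in IFRC. It was at 1397, 1137 and 1232 CPM in TBRC and at 1798, 1530.3 and 1336 in MedRC. FDC was the lowest gate in every library, although its range overlapped that of MRC. The difference of FDC from MRC (-0.39 ± 0.19, edgeR adjusted p = 0.352) was not called. FDC was lower than MedRC by a log2 fold change of -1.13 ± 0.18 (edgeR adjusted p = 2.86e-05), than IFRC by -0.75 ± 0.18 (0.00608) and than TBRC by -0.74 ± 0.18 (0.00637). Without 1-IC the difference from IFRC was -0.51 (adjusted p = 0.0540) and without 2-IC replicate 1 that from TBRC was -0.83 (0.0531), so each of these calls was lost without 1 library. Both were also lost with FDC chosen by Fcer2a or Fcgr2b (-0.58, adjusted p = 0.162, and -0.55, 0.165).

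C1ra was at 483, 384 and 153 CPM in FDC, 573, 435 and 473 in MRC, and 842, 694 and 792 in IFRC. TBRC held 1067, 653 and 921 CPM and MedRC 1201, 872 and 1025. FDC was again lowest in every library, and its range did not overlap those of IFRC, TBRC and MedRC. The log2 fold change of FDC was -1.14 ± 0.23 against IFRC (edgeR adjusted p = 0.00114), -1.32 ± 0.23 against TBRC (0.000221) and -1.65 ± 0.23 against MedRC (4.09e-06), and -0.44 ± 0.24 against MRC (0.437). With gates of at least 2 UMIs the differences from IFRC and MRC were -1.72 (called, adjusted p = 0.000203) and -1.01 (not called, 0.148), and the difference among the other 4 gates (adjusted p = 0.00555) was no longer called (0.0535).

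Serping1, the inhibitor of these proteases, was at 1013, 1029 and 479 CPM in FDC, 1043, 1291 and 956 in MRC, 1648, 1742 and 1672 in IFRC, 2429.6, 1962 and 2079 in TBRC, and 2395, 2239 and 2195 in MedRC. FDC and MRC overlapped, IFRC lay above both, and TBRC and MedRC lay above IFRC and overlapped each other. The log2 fold change of FDC was -0.97 ± 0.20 against IFRC (edgeR adjusted p = 0.00129), -1.35 ± 0.20 against TBRC (2.73e-05), -1.51 ± 0.20 against MedRC (2.26e-06) and -0.32 ± 0.20 against MRC (0.53). Among the 4 gates without Cr2 it also differed (adjusted p = 0.000851).

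Cd55, which protects the cell that carries it, was the only tested member called higher in FDC. Its FDC level was 68.6, 79.1 and 80.9 CPM, from 58, 33 and 26 UMIs, and differed little between libraries. In MRC it was at 73.6, 0 and 10.3 CPM (18, 0 and 1 UMIs), and the 0 allows up to 20.1 CPM at 3 counts. IFRC held 35.8, 17.3 and 8.30 CPM, TBRC 36.4, 36.0 and 74.2, and MedRC 22.0, 20.2 and 33.0. FDC did not overlap IFRC or MedRC and overlapped MRC and TBRC. The log2 fold change of FDC was 1.68 ± 0.43 against IFRC (edgeR adjusted p = 0.00952) and 1.64 ± 0.36 against MedRC (0.00112), and 1.13 ± 0.50 against MRC (0.296) and 0.89 ± 0.43 against TBRC (0.186) were not called. Without 1-IC the difference from IFRC was 1.4 (adjusted p = 0.0838). B cell barcodes held 231, 488 and 323 CPM of Cd55, more than any gate, while Ms4a1 was at 4.73, 4.80 and 3.11 CPM in FDC. The part of B cell RNA in the Cd55 level of FDC was not tested.

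When the barcodes with a UMI of a contaminant gene were not removed, Cd55 in MRC rose to a mean of 577 CPM and its log2 fold change between FDC and MRC turned to -1.77 (edgeR adjusted p = 0.000605). That filter removes barcodes with the B cell genes Cd79a and Cd79b, and the direction for Cd55 against MRC therefore holds only with it.

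Cd59a was near the limit of detection. It gave 3, 3, 1, 5 and 11 UMIs in FDC, MRC, IFRC, TBRC and MedRC over the 3 libraries, at most 12.3 CPM in any of them, and no order of the gates could be read from it. Its paralog Cd59b gave 6, 2, 2, 3 and 11 UMIs.

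**Figure D1:**
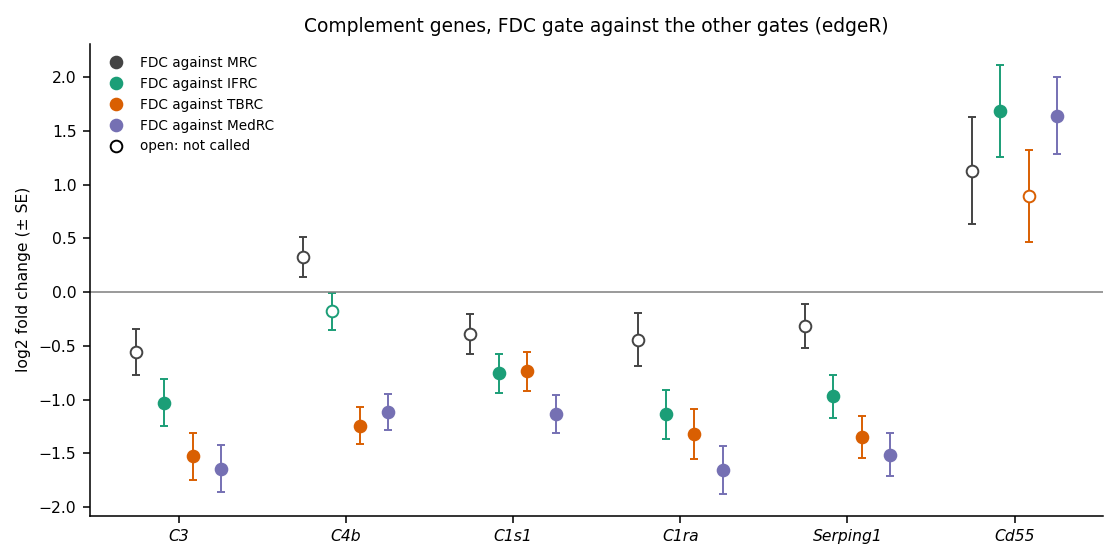
Log2 fold change of FDC against MRC, IFRC, TBRC and MedRC (edgeR, vertical axis, bars give ± SE) for the 6 members tested, with filled points for adjusted p under 0.05 and open points otherwise. All called differences of C3, C4b, C1s1, C1ra and Serping1 lie below 0 and both called differences of Cd55 above 0, and no difference from MRC was called.

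Splitting the FDC barcodes by their Cr2 UMIs showed how far the FDC level depends on the gate. This split was chosen after the values were seen and uses the gate gene, so it is given without a test. C3 was at 8639.6, 8165 and 2895 CPM in barcodes with 1 Cr2 UMI, at 2279, 3639 and 1235 in those with 2 to 9, and at 1003, 3253 and 877 in those with 10 or more. It fell from the first to the last class in every library. In both 2-IC libraries the first class lay above the C3 level of IFRC and below those of TBRC and MedRC. Serping1 was at 1974, 1447 and 630.1 CPM in the first class and at 409, 949 and 461 in the last. C1s1 went from 1589, 1079 and 525 to 488, 824 and 416 CPM, and C1ra from 1055, 441 and 345 to 94.6, 397 and 129. In 2-IC replicate 1 these genes fell at each step. In 2-IC replicate 2, C1s1, C1ra and Serping1 were at 637, 309 and 878 CPM with 2 to 9 Cr2 UMIs, below their last class. In 1-IC, C1ra (73.6) and Serping1 (417) were also lower with 2 to 9 Cr2 UMIs than in the last class.

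C4b behaved differently in 1-IC, with 1088, 834 and 360.04 CPM in the first class and 447, 409.9 and 469 in the last. Cd55 was highest with 2 to 9 Cr2 UMIs in every library (87.6, 193 and 114 CPM) and showed no steady order. Inmt was at 466, 956 and 90.0 CPM in the first class, 42.1, 9.65 and 0 with 2 to 9 Cr2 UMIs, and 11.4, 431 and 0 in the last. The MedRC marker was thus lower in the last class than in the first in every library, as were C3, C1s1, C1ra and Serping1. In 2-IC replicate 2 its last class held 100 UMIs in 3 barcodes, and in 1-IC its first class held 6 UMIs in 1 barcode. Fmod, the TBRC marker, was at 71.0, 36.8 and 0 CPM in the first class (21, 3 and 0 UMIs) and at 0, 4.31 and 0 CPM in the last. The part of the MedRC and TBRC markers in the levels of these members was not tested. The 3 classes had median totals of 4631.5, 4610.0 and 7866 UMIs in 2-IC replicate 1.

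**Figure D2:**
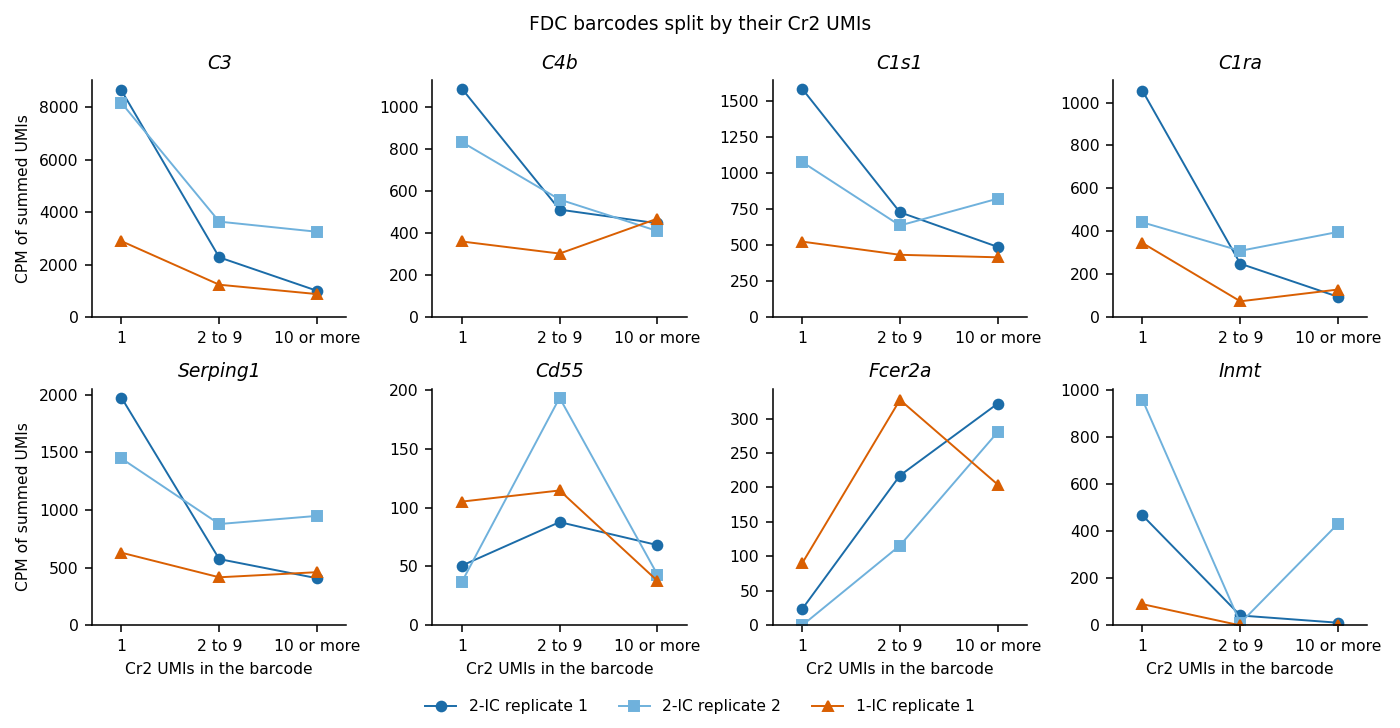
CPM (vertical axis, linear) of 6 members and of the markers Fcer2a (FDC) and Inmt (MedRC) in FDC barcodes with 1, 2 to 9 and 10 or more Cr2 UMIs (horizontal axis), 1 line per library. C3 and C1s1 were lower with 10 or more than with 1 Cr2 UMI in every library, and Fcer2a was higher.

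A further split of the FDC gate was by Malat1, a nuclear RNA whose share of UMIs separates barcodes with ample nuclear RNA (at least 1%, 167 barcodes) from those with little (63 barcodes). C3 was at 2316, 1509 and 145 CPM in Malat1-low barcodes against 4464, 4789.7 and 1698 in Malat1-ample ones. Serping1 was at 582, 377 and 145 against 1099, 1141 and 548 CPM. The Malat1-low values of the 2 genes in 1-IC rest on 8 UMIs each in 18 barcodes. Both were lower in the Malat1-low barcodes of every library, and the groups overlapped for C3 and for Serping1. The fit of this split had 6 sums and 2 residual degrees of freedom. With edgeR, 2 of 6 members tested were called, C3 (log2 fold change -2.01 ± 0.44, adjusted p = 0.0399) and Serping1 (-1.55 ± 0.30, 0.0330), against 6.28% of 3215 genes tested. Their calls were lost without 1-IC (C3 -1.35, adjusted p = 0.0823, and Serping1 -1.28, 0.113), and that of Serping1 also without 2-IC replicate 2 (-1.33, 0.0532). Both were lost too without the library block (adjusted p = 0.196 and 0.108), with no contaminant filter (0.0994 and 0.119) and with FDC chosen by Fcer2a or Fcgr2b (0.13 and 0.142), while the direction stayed the same.

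The other secreted members pointed the same way without being called. Each was called in some other setting, to be read against the share of all genes called there. C1ra was called with DESeq2, with no filter on low counts, after thinning to 2000 UMIs and without 2-IC replicate 1. C4b was called with no filter on low counts, after thinning, without shared barcodes and without 2-IC replicate 1, and C1s1 after thinning. In this split DESeq2 called 146 of 3215 genes, no filter on low counts 562 of 16694 and thinning 210 of 756. There were 266 of 3208 without shared barcodes, 446 of 2695 without 2-IC replicate 1 and 370 of 2400 with gates at 2 UMIs. C4b was at 455, 197 and 218 CPM in Malat1-low against 741, 587 and 417 in Malat1-ample barcodes (-1.18 ± 0.30, edgeR adjusted p = 0.0551), and was called with gates of at least 2 UMIs (-1.33, 0.0156). C1s1 was at 668, 476 and 327 against 1012, 888 and 469.6 CPM (-0.83 ± 0.24, 0.0721). C1ra was at 319.7, 32.8 and 18.2 against 515, 444 and 180.3 CPM (-1.89 ± 0.57, edgeR adjusted p = 0.0767). Its Malat1-low values rest on 2 UMIs in 2-IC replicate 2 and on 1 UMI in 1-IC. Cd55 stayed close, at 63.9, 65.6 and 72.7 against 69.5, 81.5 and 82.7 CPM (-0.33 ± 0.39, 0.605).

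Cr2 went the other way, with 1577, 2116 and 1727 CPM in Malat1-low and 975, 1247 and 1003 in Malat1-ample barcodes, higher in 3 of 3 libraries. Cr2 set the gate, so this is a description, and Malat1-low barcodes were shallower (median 3368, 5774 and 3207 UMIs against 5791.5, 13706 and 8370.5). Fcer2a was also higher in Malat1-low barcodes, at 298, 623 and 563 CPM against 159, 109.6 and 158. All 4 genes of a myeloid list were detected in FDC barcodes, with a summed level of 49.2 to 672 CPM in Malat1-low and 58.2 to 61.8 in Malat1-ample barcodes. The myeloid gene Lyz2 was at 227, 49.2 and 473 CPM against 38.3, 53.4 and 37.6. Some markers of other stroma moved with C3 and Serping1, and others did not. The 3 genes of the TBRC list summed to 519, 262 and 236 CPM in Malat1-low against 3659, 1506 and 1334 in Malat1-ample barcodes, and the collagen gene Col1a1 was at 625, 65.6 and 0 against 846, 1208 and 312. The IFRC list was lower too, at 21.3, 0 and 0 against 104, 78.7 and 93.9 CPM. The MedRC list (561, 32.8 and 72.7 against 402, 736 and 75.1) and the MRC list (803, 1017 and 1090 against 852, 534 and 1078) had no common direction. A list of 5 stromal genes, Col1a1 and Cxcl13 among them, was higher in Malat1-low barcodes of every library (39702, 35478 and 61574 against 34672, 20653 and 53039). Over all FDC barcodes most of this sum was Cxcl13 (33037, 19945 and 53829 of 35509, 22821 and 54501 CPM). Col1a1 of the same list went the other way. The part of these markers, and that of depth, in the differences was not tested.

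**Figure D3:**
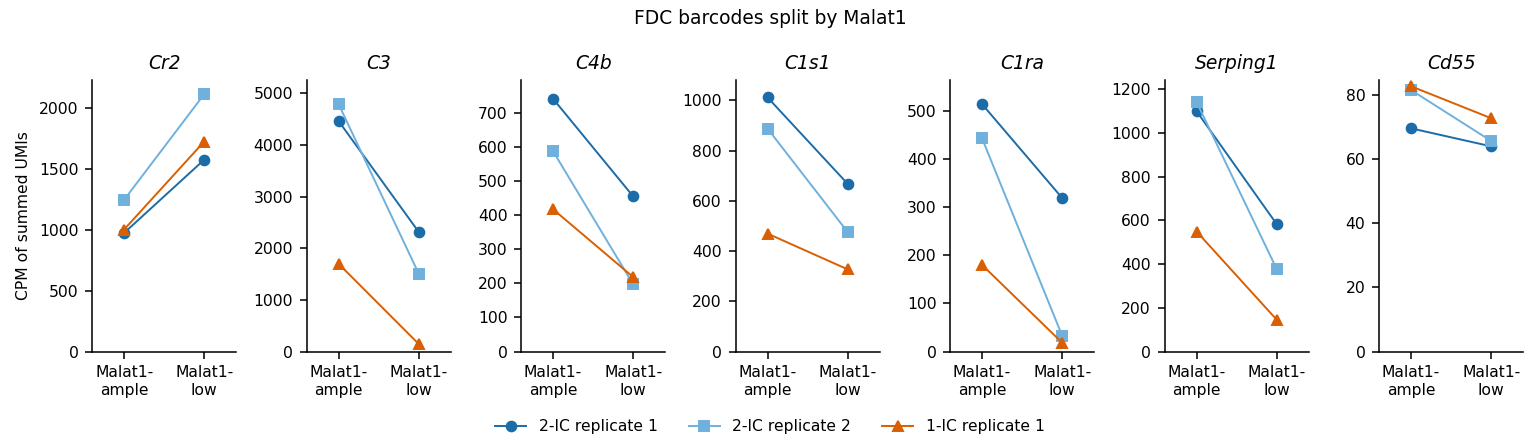
CPM (vertical axis, linear, starting at 0) of 7 members in Malat1-ample and Malat1-low FDC barcodes, with 1 line per library. C3, C4b, C1s1, C1ra and Serping1 were lower in Malat1-low barcodes in every library, Cr2 was higher, and Cd55 was at 63.9 to 82.7 CPM in both.

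To ask whether a second IC went with other complement levels, 1-IC and 2-IC were set side by side. With 1 library of 1-IC there is no test. In FDC, C3, C4b, C1s1, C1ra and Serping1 were all lower in 1-IC than in both 2-IC libraries. The share of all genes that lay below both by any amount was not counted. C3 was 2.87 and 3.01 times higher in the 2-IC libraries than in 1-IC, C1ra 3.16 and 2.52 times and Serping1 2.11 and 2.15 times. C1s1 (2.14 and 1.86 times) and C4b (1.81 and 1.38 times) differed less, and Cr2 (0.954 and 1.22) and Cd55 (0.848 and 0.978) were close to 1. So 3 of the 7 members with at least 50 CPM in a library were 2-fold or more below both 2-IC libraries, against 6.21% of 3900 genes. Only 0.923% of these genes were 2-fold or more above both, so genes in FDC leaned to lower values in 1-IC at this threshold.

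Whether FDC differ in this from the other gates was not tested. In MRC, IFRC, TBRC and MedRC no member with at least 50 CPM was 2-fold below both 2-IC libraries, where 9.24%, 4.15%, 11.6% and 2.63% of genes were. C3 in MedRC was 1.31 and 1.26 times as high in the 2-IC libraries as in 1-IC, C3 of 1-IC in IFRC lay between the 2-IC libraries, and Serping1 in IFRC was at 1648 and 1742 CPM in 2-IC and 1672 in 1-IC. In MRC, C3 was 1.64 and 1.26 times as high in the 2-IC libraries, C1s1 1.64 and 1.54 times and Serping1 1.09 and 1.35 times. C4b and C1ra of 1-IC lay between the 2-IC libraries there. Values of 1-IC were also below both 2-IC libraries for C4b, C1s1 and Serping1 in MedRC and for C3 in TBRC. In Malat1-ample FDC barcodes the same 3 members were 2-fold or more below (C3 by 2.63 and 2.82 times, C1ra by 2.86 and 2.46, Serping1 by 2.0 and 2.08), against 6.68% of genes. With 10 or more Cr2 UMIs, however, C3 was at 877 CPM in 1-IC against 1003 and 3253 in the 2-IC libraries. Serping1 (461 against 409 and 949) and C1ra (129 against 94.6 and 397) of 1-IC lay between the 2-IC libraries in that class. The share of FDC barcodes with a single Cr2 UMI was 62 of 145 in 2-IC replicate 1, 8 of 35 in 2-IC replicate 2 and 11 of 50 in 1-IC. Some markers of other stroma were lower in 1-IC together with the secreted members, and others were not. In FDC, both genes of the MedRC list summed to 428, 633 and 74.7 CPM, Col3a1 was at 664, 811 and 125 CPM and Cxcl1 at 515, 391 and 18.7. The TBRC list was also lowest in 1-IC (3136, 1324 and 1146 CPM), and the IFRC list of 1-IC lay between the 2-IC libraries (89.9, 67.2 and 77.8). The MRC list (843, 604 and 1080) was highest in 1-IC. So was the sum of the 5 stromal genes (35509, 22821 and 54501), but most of it was Cxcl13 (33037, 19945 and 53829). The other genes of that list were lowest in 1-IC. These were Col3a1, Pdpn (105, 91.1 and 71.6), Col1a1 (809, 1041 and 258) and Col1a2 (894, 933 and 218). The part of that share and of these markers in the difference between libraries was not tested. The number of ICs, the mice and the library preparation cannot be told apart.

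Counted per barcode, all 5 of C3, C4b, C1s1, C1ra and Serping1 had a UMI in 44.1%, 42.9% and 28.0% of FDC barcodes. The shares were 68.3%, 63.6% and 68.8% in MRC, 77.3%, 80.0% and 78.1% in IFRC, 94.2%, 90.5% and 70.0% in TBRC, and 87.0%, 87.9% and 90.1% in MedRC. FDC had the lowest share in every library. Each barcode was then thinned to 2000 UMIs, which left 121, 34 and 42 FDC, 36, 9 and 14 MRC, 416, 82 and 76 MedRC and 151, 48 and 158 B cell barcodes. The share with all 5 was then 24.8%, 17.6% and 4.76% in FDC, 38.9%, 11.1% and 42.9% in MRC, and 71.6%, 57.3% and 63.2% in MedRC. FDC stayed below MedRC in every library, but was above MRC in 2-IC replicate 2, where MRC had 9 barcodes. In the thinned barcodes C3 had a UMI in 84.3%, 97.1% and 50% of FDC (unthinned 90.3%, 100% and 58.0%) and in 35.8%, 35.4% and 5.06% of B cell barcodes. C1ra had one in 46.3%, 20.6% and 9.52% of FDC against 4.64%, 0% and 0% of B cell barcodes, and Cd55 in 16.5%, 17.6% and 21.4% of FDC against 39.1%, 58.3% and 47.5% of B cell barcodes. Median depths before thinning were 5687 UMIs in FDC and 3317 in B cell barcodes. Thus the shares of C3 and C1ra in FDC were above those of the B cell barcodes in every library, and that of Cd55 was below its share in B cells. The B cell barcodes were chosen without collagen UMIs, so barcodes with such stromal RNA were left out of that background.

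Of 57 genes of the complement pathway, 17 reached a mean of 20 CPM in a gate, among them 7 of the 8 members, 24 were detected below that and 16 had no UMI in the gated barcodes. The C1q chains, which bind the antibody, were at most at 8.02 CPM in the mean of any gate. The 6 terminal genes, which form the membrane pore, gave 19 UMIs over all gates. Between FDC and MRC 1 of 15 pathway genes tested was called, and between FDC and IFRC, TBRC and MedRC 9, 8 and 13 of 15 were (3, 2 and 4 of them higher in FDC), to be read against the shares of all genes given above. Their median log2 fold change was -0.08, -0.18, -0.46 and -1.11.

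The gene called in all 4 comparisons was Cr1l, which encodes Crry, a membrane regulator of C3 cleavage. It was at 164, 283 and 131 CPM in FDC, 123, 100.4 and 82.2 in MRC, and 82.7, 88.8 and 55.7 in MedRC, and FDC was higher in every library. The log2 fold change of FDC was 0.93 ± 0.24 against MRC (edgeR adjusted p = 0.0263) and 1.26 ± 0.19 against MedRC (1.15e-05). Cr1l lies on the minus strand of chromosome 1 from 195097382 to 195131586, 5224 bases downstream of Cr2, and shares none of the 50-base stretches of Cr2 transcripts. In Malat1-low FDC barcodes it was at 107, 65.6 and 90.9 CPM against 176, 320.2 and 139 in Malat1-ample ones (-1.27 ± 0.41, adjusted p = 0.0872), opposite to the direction of Cr2 in that split. By Cr2 UMIs, however, Cr1l was higher in the last class than in the first in every library. It was at 101, 61.3 and 30.0 CPM in FDC barcodes with 1 Cr2 UMI and at 208, 418 and 136 in those with 10 or more, without a test. With 2 to 9 Cr2 UMIs it was at 189, 154 and 180, in 1-IC above the last class. The first class of 1-IC held 2 UMIs of Cr1l.

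Clu (clusterin), a fluid-phase inhibitor of the terminal pathway, was at 17043, 11052 and 24339.6 CPM in FDC against 3236, 2508 and 2469.6 in MedRC, a log2 fold change of 2.56 ± 0.18 (edgeR adjusted p = 8.27e-11). Its difference from MRC was not called (0.19 ± 0.17, 0.702). Csmd1, a membrane inhibitor, was called higher in FDC than in MedRC (0.57 ± 0.18, 0.0230) and lower in Malat1-low FDC barcodes (-2.65 ± 0.49, 0.0312). Against that, the fluid-phase regulator Vtn was lower in FDC than in MedRC, by -1.88 ± 0.26 (5.81e-06), as was the component C2 by -0.76 ± 0.19 (0.00409) and C1rb by -2.03 ± 0.60 (0.0137), which shares sequence with C1ra. Vtn was also lower than in IFRC (-1.68 ± 0.28, 0.000123) and TBRC (-2.69 ± 0.27, 1.33e-07). Cfb, of the alternative pathway, was at 296, 122 and 218 CPM in FDC and 180.0, 87.1 and 270.0 in MedRC, and Colec12 at 283, 230.2 and 196 against 186, 262 and 188, and neither was called in any comparison. C1rl was at 16.6, 28.8 and 28.0 CPM in FDC and was not tested.

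In stromal barcodes with a high share of interferon-induced transcripts (15, 1 and 13 per library), C3 was at 8893 and 5662 CPM in 2-IC replicate 1 and 1-IC (a single barcode in 2-IC replicate 2 is left out), against 9068 and 6484 in the other kept barcodes. Serping1, an interferon-inducible gene, was at 2223 and 2125 against 2088 and 1766 CPM, and C4b at 1196 and 802 against 1094 and 792. In barcodes with a high share of Cxcl1 (418, 98 and 53 per library), C3 was at 10029.9, 8778 and 9127 CPM against 8672, 8578 and 5904, C4b at 1285, 1069 and 1313 against 1017, 913 and 688, and C1s1 at 1681, 1429 and 1407 against 1528, 1375 and 1099. All 3 were higher with high Cxcl1 in every library. These sets hold different mixes of the gates, and no test was made.

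The genes whose level followed a member most closely over the 15 sums of gates and libraries were named by Pearson's r of log2(CPM + 1) among 6113 genes, as a description, since sums of a library share their cells' preparation and depth. For Cr2 the first were Nphs1 (r = 0.96) and Prnp (0.94), and the r of Cr2 with C3, C1ra and Serping1 was -0.71, -0.72 and -0.70. By construction of the gates Cr2 was 0 in all sums other than those of FDC. Its r values therefore restate the contrast of FDC with the other gates and do not measure how Cr2 varied within a gate. C3 went with Apoe (0.96), Serping1 (0.95) and C1ra (0.95), C1ra with C3, Serping1 and Selenop (each 0.95), and Serping1 with Atp1b1 (0.96), Lrp1 (0.96) and C3 (0.95). C1s1 went with Apoe (0.97), Srpx (0.96) and Selenop (0.95), and C4b with Gas6 (0.92), Gm9780 (0.91) and the chemokine gene Cxcl12 (0.90). Cd55 went with Gpat4 (0.92), Mtx1 (0.89) and Ten1 (0.87), all of low level, and no gene followed the sparse Cd59a beyond 0.72 (Ndufs1, then Commd8 with 0.67 and Tmpo with 0.66).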

How the data were processed

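Sorted cells were sequenced with the 10x Genomics 3′ kit. Per the file headers, the authors obtained UMI counts from Cell Ranger (5.0.0 in the header, version 3 in their methods, GRCm38, Ensembl 89) and deposited these counts without normalization. The 2-IC libraries were grouped by their titles, as their short descriptions differ from these. The descriptions name 24 h and 7 days, a single time per library, so the schedule of ICs rests on the titles. Replicates were numbered in accession order, and the labels tie no library to animals. The study's methods describe independent experiments with the LNs of several mice pooled in each. The p-values measure how far differences between gates varied over the libraries, and not the spread between animals.

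Barcodes with at least 200 genes, at most 10% mitochondrial UMIs and 0 UMIs of 13 contaminant genes were kept, as in the paper. An MRC barcode had to lack Cr2, Fmod and Inmt, and an IFRC, TBRC or MedRC barcode all gate genes other than its own. B cell barcodes had Cd79a or Cd79b and no collagen (Col1a1, Col1a2, Col3a1). Counts were summed per library and gate (at least 5 barcodes) and given as CPM, with the SD over libraries. Totals per library were 20607903, 12788101 and 3766526 UMIs (2-IC replicate 1, 2-IC replicate 2, 1-IC), which set the precision, and intervals and limits at 3 counts cover counting error only.

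Tests were edgeR 4.0.16 (R 4.3.3, TMM, filterByExpr, quasi-likelihood, library as block), Benjamini-Hochberg adjusted over all genes tested, called under 0.05. DESeq2 1.42.0 was an alternative. The tests were first run on simulated counts with known changes. Interferon-high barcodes had Isg15, Ifit1, Ifit3 and Rsad2 together, and Cxcl1-high barcodes Cxcl1, at 0.1% or more of UMIs with at least 3 UMIs.

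Named were the 8 members, complement genes called in a test or at 20 CPM or more in a gate, and the 3 genes most alike each member, apart from a few genes that are not reported here. Members and lists were chosen with earlier results of these data known. Positions and shared stretches are from GENCODE M21 (Ensembl 96, GRCm38). Of the members, 6 had a promoter in the RefSeq table.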

Additional observations from a re-analysis of the deposited data

Results flagged for a closer look

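For C4b, the ratio between FDC and MRC had opposite signs in 2-IC and 1-IC. The log2 ratio of its CPM in FDC to that in MRC was 0.36 and 0.40 in the 2-IC libraries and -0.14 in 1-IC, where FDC held 123 UMIs of C4b and MRC 41. The difference between the conditions was not tested, as 1-IC is a single library.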

How the results depend on the processing

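Counts of genes called between FDC and MRC, IFRC, TBRC and MedRC, among the 4 other gates, and between Malat1-low and Malat1-ample FDC barcodes were 247, 764, 994, 1611, 835 and 202. With no replicate block for the library they were 76, 313, 488, 780, 256 and 127. No other pairing was possible, as gates pair only within a library. Those first counts were of 6756 genes tested, and of 3215 in the Malat1 split. Thinning to 2000 UMIs gave 91, 243, 312, 509 and 291 of 1604 genes tested in the first 5, and 210 of 756 in the Malat1 split. Counts over different numbers of genes tested cannot be compared directly. With no contaminant filter the counts were 1107, 1271, 1946, 2772 and 1355 of 8829 genes tested, and 46 of 7701 in the Malat1 split. With no filter on low counts FDC and MRC gave 376 of 20779 and the Malat1 split 562 of 16694. Malat1-ample FDC barcodes alone against MRC gave 153 of 6513. Gates at 2 UMIs gave 370 of 2400 in the Malat1 split, and an FDC gate by Fcer2a or Fcgr2b, chosen after seeing the data, gave 2 of 2614 there. DESeq2 gave 192, 638, 888, 1344, 781 and 146. Leaving out 1 library at a time gave 116 to 168, 417 to 630, 511 to 793, 909 to 1425, 333 to 638, and 56 to 446, with fewer sums in each fit.

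Of 23 calls of members, DESeq2 kept 22, no filter 23, gates at 2 UMIs 22, no contaminant filter 21, the fit without shared barcodes (chosen after seeing the data) 23, no replicate block 11, and the Fcer2a or Fcgr2b gate 15. That gate ended the calls of C3 and C1s1 against IFRC, C1s1 against TBRC, C3, C1s1 and C1ra among the other 4 gates, and C3 and Serping1 in the Malat1 split. Thinning kept 20 of 21. Without 2-IC replicate 1, 2-IC replicate 2 or 1-IC, 19, 22 and 18 were kept, and 3 calls were gained without 2-IC replicate 1. C3 between FDC and MRC was called without 2-IC replicate 2 (-0.82, edgeR adjusted p = 0.0428) and with no filter on low counts (0.00249). Directions reversed in 3 cases, none of them called with the filters, gates and block of the report. With no contaminant filter Serping1 between FDC and MRC was 0.22 (not called) and Cd55 was -1.77 (called, edgeR adjusted p = 0.000605), and C4b between FDC and IFRC ranged from -0.40 to 0.077 when 1 library was left out, the latter without 1-IC. The cause was not tested. Cd59a, with at most 7 UMIs in a gate of a library, was too sparse for a test at this depth.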
